A study of Oryza sativa with 9 samples.

Results

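Transcript levels in young panicles of ZH11-Cas9-1, a line in which the GSE9 gene was disrupted with CRISPR/Cas9, were compared with those of its wild type ZH11. ZH11 (Zhonghua11) is a japonica rice variety, and GSE9 is a gene that the study traced to formerly non-coding sequence and tied to the shape of the rice grain. A gene was compared when its mean over the 6 libraries (3 of each genotype) was at least 1 FPKM (fragments per unit of transcript length and of sequencing depth), and 21878 of the 37863 genes in the deposited table met this condition. Of the genes compared, 21261 had a mean of at least 1 FPKM in both genotypes, whereas 356 passed only through ZH11-Cas9-1 and 261 only through ZH11. In the whole table, 5655 genes were listed at 0 in all 9 libraries, the third genotype being ZH11-OE-1, which overexpresses GSE9 in the same variety. All plants shared the ZH11 background, no treatment was applied, and the panicles were taken before heading according to the sample labels but before anthesis according to the methods of the study. In the knockout construct, Cas9 was driven by a ubiquitin promoter and the guide RNA by the U3b promoter, so that the nuclease was not limited to the panicle. ZH11-Cas9-1 is a single line, and what belongs to this line (tissue culture, insertion of the construct, other cut sites) cannot be told apart from loss of GSE9. The study reported longer and narrower grains in this line, with fewer hull cells across the grain width and larger cells. GSE9 has no entry under its own name in the table, and its level is therefore not reported.

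The rice grain fills inside a hull made of the lemma and the palea, and the size of this hull, set by cell division and cell expansion before flowering, limits the final shape of the grain. Known regulators of hull size include heterotrimeric G proteins, a mitogen-activated protein kinase (MAPK) cascade, the ubiquitin pathway, brassinosteroids, auxin and gibberellin, and transcription factors of the SQUAMOSA promoter-binding-like (SPL) and growth-regulating factor families. A young panicle also holds anthers, in which the tapetum feeds the developing pollen and supplies its wall.

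A guide that the study lists for the knockout is shown, as a designed target sequence in GSE9. The methods mention a pair of guide RNAs, and the sources used here do not say which of them gave ZH11-Cas9-1. The guide is the 20-base insert of the oligonucleotide for the construct, and the primer used for mapping the 3′ end of the GSE9 transcript contains the same bases, here in capitals.
Guide: atcccctgtccgtcgggcat
Primer: cccATCCCCTGTCCGTCGGGCAT

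The 6 libraries were similar in scale. The summed FPKM were 651917 to 676384 in ZH11 and 679258 to 701261 in ZH11-Cas9-1, and the relative depth, read from the ratios of low values between libraries, was 0.931 to 1.05 of that of ZH11 replicate 1. The absolute number of reads is unknown from FPKM. Pearson correlations of log2(FPKM + 1) across genes were 0.980 to 0.983 among the ZH11 libraries, 0.981 to 0.988 among the ZH11-Cas9-1 libraries and 0.957 to 0.974 between the genotypes. No value above 0 was shared by any pair of libraries. As a check of the tissue, all 22 genes of a list of floral MADS-box genes, which specify floral organs, passed the filter, with medians over the list of 44.7 to 49.5 FPKM in the ZH11 libraries and 45.7 to 47.6 FPKM in the ZH11-Cas9-1 libraries. Of 9 endosperm storage genes, which are abundant in filled grains, 5 remained below the filter and the other 4 summed to 50.9 to 57.7 FPKM per library.

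At an adjusted p under 0.05 (limma, Benjamini-Hochberg over all 21878 genes), 1094 genes (5.0% of those tested) were higher and 785 genes (3.59%) were lower in ZH11-Cas9-1 than in ZH11. Together they made up 8.59% of the tested genes, and 5620 genes (25.7%) had an unadjusted p under 0.05. Most changes were small, the median size among the called genes being 0.66 on the log2(FPKM + 1) scale, a scale that understates the change of weakly expressed genes. The large changes were mainly increases. At a log2 difference of at least 1, 247 genes (1.13% of those tested) were higher and 107 (0.489%) were lower, at least 2 was reached by 47 higher and 4 lower genes, and at least 3 by 16 higher genes and 0 lower genes. Many of the largest rises were of genes that passed the filter only because they were high in ZH11-Cas9-1. Where both genotypes had means of 1 FPKM or more, the numbers of higher and lower genes were 182 and 92 at 1, 22 and 3 at 2, and 5 and 0 at 3. The 3 libraries of one genotype did not overlap those of the other in 6585 genes (30.1% of those tested) and in 1876 of the 1879 called genes. The counts depended on single libraries. Without ZH11 replicate 3 they fell to 352 higher and 222 lower, on leaving out ZH11-Cas9-1 replicate 2 to 259 and 182, on leaving out its replicate 3 to 705 and 333, and 511 lower genes were left without ZH11 replicate 1. Without ZH11-Cas9-1 replicate 1 the balance turned, with 570 higher and 654 lower genes, so that 46.6% of the calls were higher genes, against 58.2% with all libraries. In a fit with the replicate number as a block on the 6 libraries alone, 1756 genes were higher and 1023 lower, and in the same fit without the block 619 were higher and 396 lower.

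**Figure D1:**
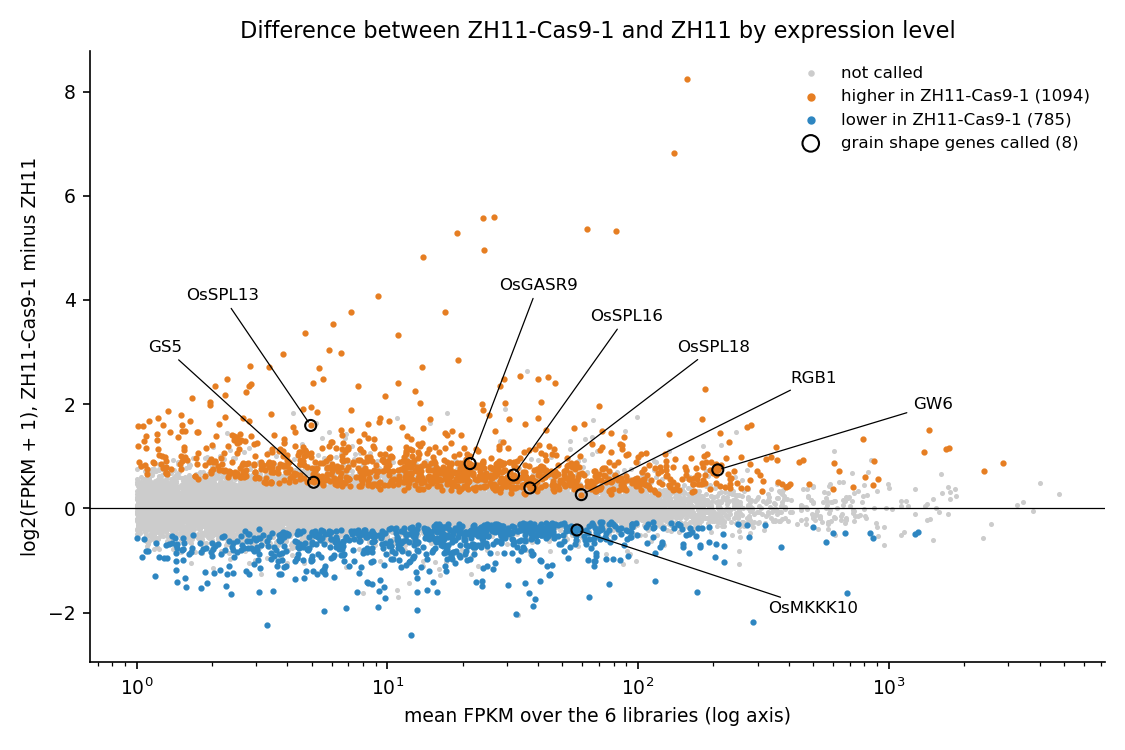
Difference between the genotypes in log2(FPKM + 1) against the mean FPKM over the 6 libraries (log axis), 1 point per tested gene, with the 1094 higher and 785 lower genes coloured and the 8 called grain shape genes circled. The points beyond 3 are all above 0.

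The share of called genes grew with expression level. Of 2402 genes with a mean of 1 to 2 FPKM, 2.75% were higher and 1.75% lower, whereas of 1085 genes at 100 FPKM or more, 12.8% were higher and 4.98% lower. The standard error of the difference moved along with this, from a median of 0.18 in the lowest class to 0.11 in the highest, and its part in the share was not tested. Calls were spread over all 12 chromosomes, with 4.03% (chromosome 5) to 5.85% (chromosome 12) of genes higher and 2.70% (chromosome 8) to 5.66% (chromosome 11) lower. Chromosome 11 had 65 lower against 53 higher genes and chromosome 5 had 78 against 73, while the other chromosomes had more higher than lower genes. Windows of 20 neighbouring tested genes with at least 5 called genes that differed by 1 or more merged into 1 region, at ranks 1108 to 1133 of the 1149 tested genes of chromosome 11 in identifier order. Of its 26 genes, 2 were higher and 5 lower, and the median difference over all 26 was -0.12. The region was not found without ZH11 replicate 3 or ZH11-Cas9-1 replicate 2 (0 regions each), and 2 regions were found without ZH11 replicate 2 and without ZH11-Cas9-1 replicate 1.

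The largest differences were those of genes nearly silent in ZH11. Os03g0115800, on chromosome 3, had 0.0457, 0.0462 and 0 FPKM in ZH11 replicates 1 to 3 and 350.9, 299.5 and 290.3 FPKM in ZH11-Cas9-1. It was thus close to 0 in every wild-type library and among the abundant transcripts in every knockout library. The difference was 8.25 ± 0.83 (SE) on the log2(FPKM + 1) scale (limma adjusted p = 0.000475), and since one wild-type library was listed at 0 its size depended on the pseudocount, being 11.2 with 0.1 in place of 1. In ZH11-OE-1 the same gene had 2.53, 22.5 and 85.9 FPKM, which lie between the other genotypes and differ widely among themselves. The SE of 0.83 takes in this spread, and it was 0.10 in the fit of the 6 libraries alone. Os07g0511400, on chromosome 7, had 1.01, 2.13 and 1.25 FPKM in ZH11 and 335.2, 276.6 and 218.7 FPKM in ZH11-Cas9-1. The groups were far apart (6.82 ± 0.18, adjusted p = 5.53e-09), and the ZH11-OE-1 libraries were at 72.5 to 89.7 FPKM. The files and the reference table give neither identifier a name.

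Decreases were smaller and started from expressed genes. Os06g0517700, on chromosome 6, had 18.1, 21.9 and 24.8 FPKM in ZH11 and 3.04, 3.89 and 2.70 FPKM in ZH11-Cas9-1. All knockout libraries were far below the lowest wild-type library (-2.42 ± 0.18, adjusted p = 4.53e-05), with 8.28 to 13.6 FPKM in ZH11-OE-1. Os04g0110100, on chromosome 4, went from 7.73, 6.66 and 4.01 FPKM in ZH11 to 0.400, 0.803 and 0.257 FPKM in ZH11-Cas9-1. The fall was -2.24 ± 0.21 (adjusted p = 0.000311), and ZH11-OE-1 had 1.67 to 2.15 FPKM. These identifiers are likewise unnamed, and all 4 were called under each alternative in which they were tested. The 4 were picked in these same libraries as the largest called changes of unnamed genes, so their adjusted p values are no separate support. Os03g0115800 passed the filter only through ZH11-Cas9-1, and Os04g0110100 only through ZH11.

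Genes that were off in one genotype and on in the other were found in one direction. All 3 ZH11 libraries were below 0.5 FPKM and all 3 ZH11-Cas9-1 libraries at 2 FPKM or above in 23 genes, and 0 genes showed the reverse. No test was made on this selection. Of the 23 genes, 8 were listed at 0 in all 3 ZH11 libraries. Their means in ZH11-Cas9-1 ran from 2.23 to 313.6 FPKM with a median of 5.66, the second highest was 53.1 FPKM, and 8 genes were at 10 FPKM or more. Levels agreed well among the knockout libraries, with coefficients of variation of 4.05% to 21.3%. The genes lay on 8 chromosomes, 5 each on chromosomes 1 and 3, 3 each on 2, 6 and 7, 2 on 12, and 1 each on 4 and 5. On chromosome 7, Os07g0511100 and Os07g0511301 carry numbers close to that of Os07g0511400, described above. Their means in ZH11-OE-1 were 2.58 and 11.6 FPKM. With the lower limit relaxed from 0.5 to 1 FPKM, another 11 genes were on and 8 were off in ZH11-Cas9-1, so that the reverse pattern, not seen at the stricter limit, occurred as well. In addition, 2 genes were off in ZH11-Cas9-1 when its replicate 2 or its replicate 3 was left out.

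These 23 genes were not uniform in the overexpression line. In ZH11-OE-1, 11 of them were at 2 FPKM or more in all 3 libraries, 7 were below 0.5 FPKM in all 3, and 5 were in between. Among the 11, the ZH11-OE-1 means were 3.19 to 37.0 FPKM and lay below the ZH11-Cas9-1 mean in 10. Among the 7, the highest ZH11-OE-1 library reached 0.338 FPKM while the ZH11-Cas9-1 means were 2.23 to 38.0 FPKM. Thus 11 genes on in the knockout line were also on in the line with the opposite manipulation of GSE9, and 7 were on in ZH11-Cas9-1 alone among these genotypes.

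**Figure D2:**
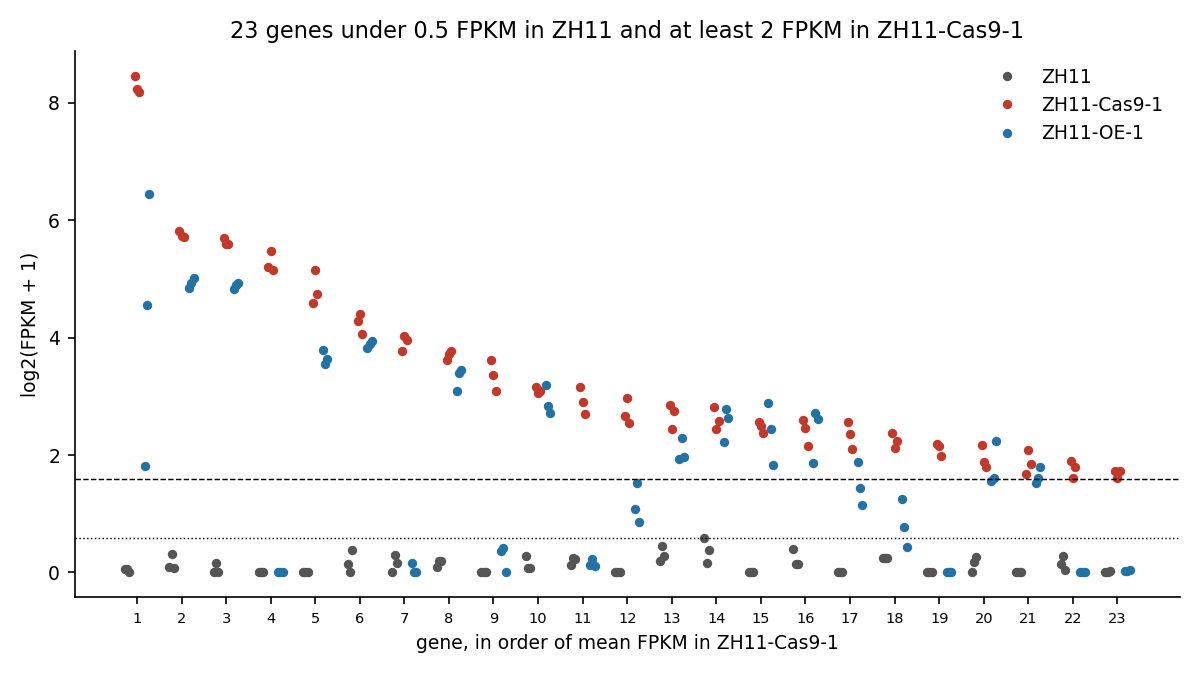
Levels of the 23 genes in each library, as log2(FPKM + 1), ordered by their mean in ZH11-Cas9-1 (grey ZH11, red ZH11-Cas9-1, blue ZH11-OE-1). The dotted line marks 0.5 FPKM and the dashed line 2 FPKM, and the blue points of 7 genes lie below the dotted line.

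Known regulators of grain shape were taken from the compilation made for the study. This grain shape list holds 62 distinct names, of which 58 could be tied to a single row of the table, and 52 of these passed the filter. Of the 52, 7 were higher (13.5%, against 5.0% of all tested genes) and 1 was lower (1.92%, against 3.59%) in ZH11-Cas9-1, and 15 (28.8%, against 25.7% of all tested genes) had an unadjusted p under 0.05. The median difference over the 52 genes was 0.04, against -0.01 over all tested genes. The groups did not overlap in 18 of the 52 (34.6%, against 30.1% of all tested genes), 11 of them higher and 7 lower. The number of higher genes fell to 3 without ZH11 replicate 3, to 4 without ZH11-Cas9-1 replicate 1 or replicate 3 and to 2 without ZH11-Cas9-1 replicate 2, while 3 genes were lower without ZH11-Cas9-1 replicate 1. With the replicate block on all 9 libraries 5 were higher and 2 lower, and with the block on the 6 libraries 7 were higher and 3 lower.

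**Figure D3:**
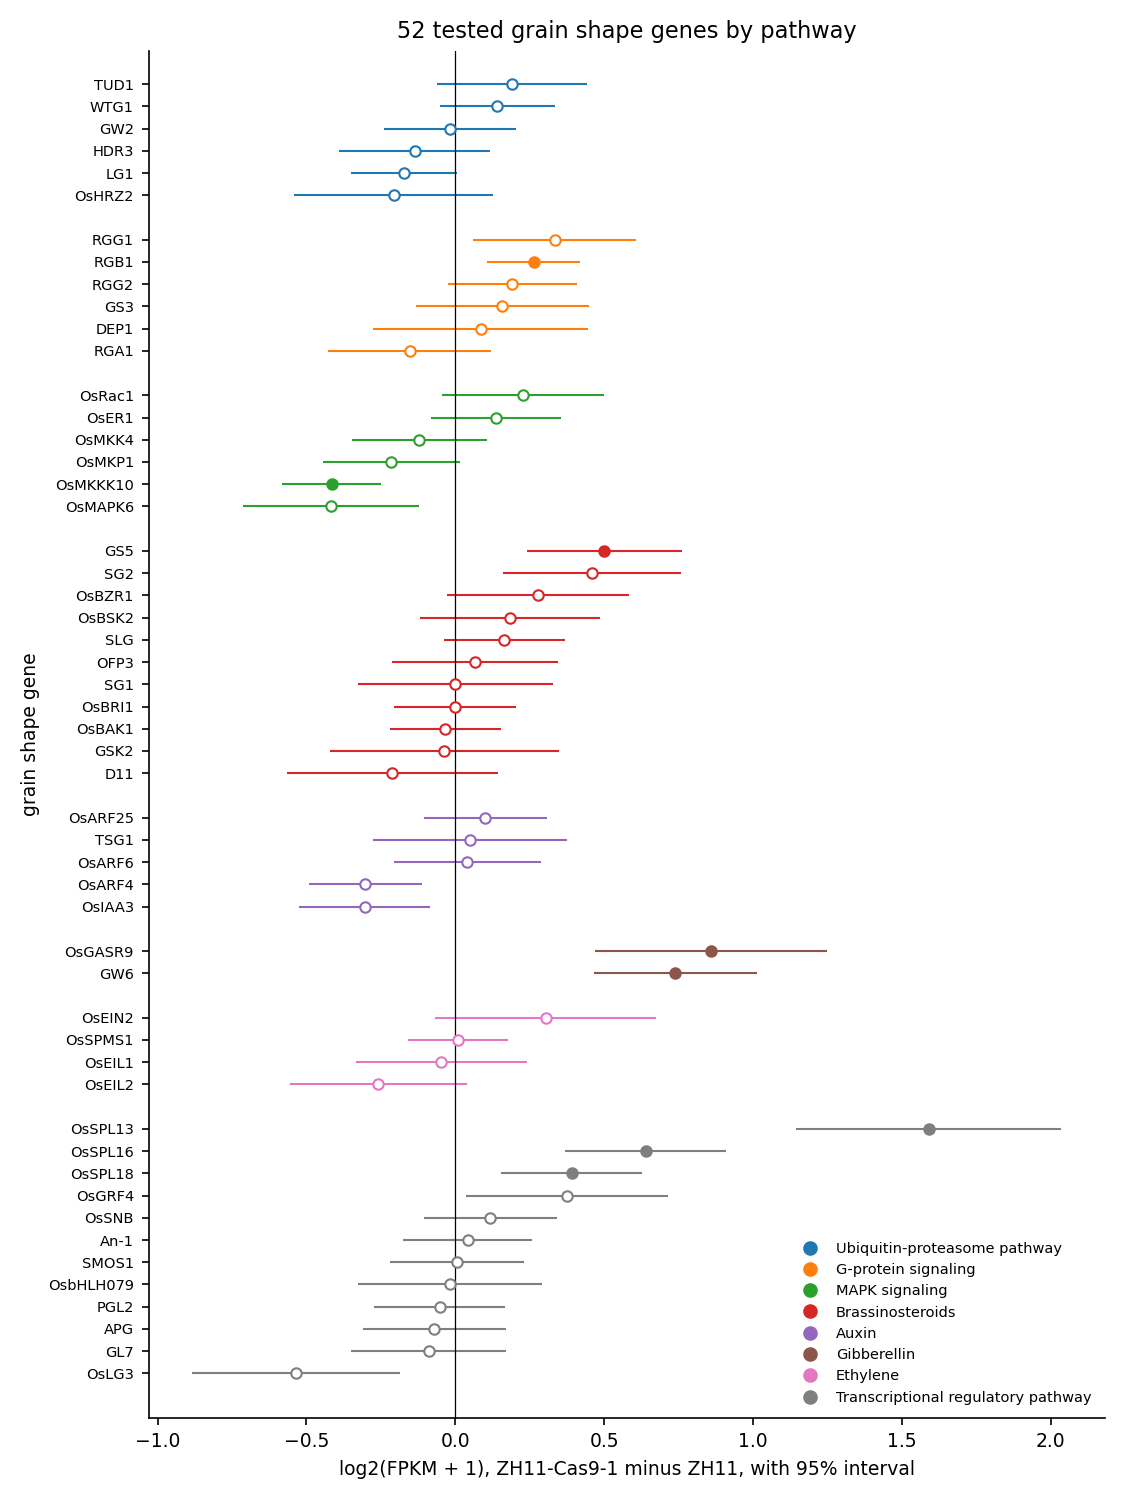
Difference between ZH11-Cas9-1 and ZH11 in log2(FPKM + 1) with its 95% interval for the 52 tested grain shape genes, grouped and coloured by pathway. Filled points passed an adjusted p under 0.05, and OsSPL13 at 1.59 stands farthest from 0.

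Among the transcription factors of the list, 3 SPL genes rose. OsSPL13, a positive regulator of cell size in the hull, had 2.68, 1.85 and 1.43 FPKM in ZH11 and 6.72, 8.50 and 8.52 FPKM in ZH11-Cas9-1. The lowest knockout library was more than 4 FPKM above the highest wild-type library (1.59 ± 0.20, adjusted p = 0.0023), and the gene was called in each alternative in which it was tested. OsSPL16, which promotes cell division across the grain width, had 24.0, 28.8 and 21.6 FPKM in ZH11 and 34.8, 42.1 and 40.1 FPKM in ZH11-Cas9-1. The ranges did not overlap (0.64 ± 0.12, adjusted p = 0.0141), though the call was lost without ZH11 replicate 3 (adjusted p = 0.0542) and without ZH11-Cas9-1 replicate 2 (adjusted p = 0.0696). A rise of such a gene would go with wider grains, whereas the grains of the knockout line were narrower. The part of this rise in grain width was not tested. OsSPL18, a further member of the family, had 34.2, 34.8 and 27.1 FPKM in ZH11 and 42.2, 45.0 and 39.1 FPKM in ZH11-Cas9-1. Its rise was the least secure of the 3 (0.39 ± 0.11, adjusted p = 0.0488), being lost with the replicate block on all 9 libraries (adjusted p = 0.0584) and on leaving out ZH11 replicate 1 or 3 or any one ZH11-Cas9-1 library (adjusted p of 0.0575 to 0.181). In ZH11-OE-1 the means of these genes were 0.474 FPKM for OsSPL13, 21.2 FPKM for OsSPL16 and 24.9 FPKM for OsSPL18.

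The other transcription factors gave no call. OsGRF4, a growth-regulating factor that enlarges grains, had 2.84, 3.56 and 2.84 FPKM in ZH11 and 4.55, 4.52 and 3.78 FPKM in ZH11-Cas9-1. The libraries did not overlap, yet the difference of 0.38 ± 0.15 missed the threshold (adjusted p = 0.156). OsLG3, an ethylene-response-factor type gene, had 18.6, 16.9 and 18.5 FPKM in ZH11 and 16.3, 11.2 and 9.66 FPKM in ZH11-Cas9-1. The values were lower throughout but spread in the knockout (-0.53 ± 0.16, adjusted p = 0.0631), and the gene passed without ZH11-Cas9-1 replicate 1 (-0.74, adjusted p = 0.0105). GL7, An-1, PGL2, APG, SMOS1, OsSNB and OsbHLH079 differed by -0.09 to 0.12, each with a 95% interval inside -0.5 to 0.5. PGL1, a small bHLH protein that lengthens grains when raised, was below the filter, at 0.736, 0.651 and 0.536 FPKM in ZH11 against 0.0878, 0.285 and 0.148 FPKM in ZH11-Cas9-1. Its groups did not overlap. OsPIL11 and OsGIF1 were also below the filter.

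Both gibberellin-related genes of the list, members of the GAST family of small secreted proteins, rose (100% of only 2, against 5.0% of all tested genes). GW6 (OsGASR7) had 144.0, 184.1 and 140.4 FPKM in ZH11 and 230.5, 272.6 and 277.5 FPKM in ZH11-Cas9-1. The gain was 66.6% of the wild-type mean (0.74 ± 0.12, adjusted p = 0.00804), and the call held in each alternative. OsGASR9 had 10.3, 19.2 and 16.0 FPKM in ZH11 and 24.6, 29.7 and 28.6 FPKM in ZH11-Cas9-1. The wild-type libraries spread over a wide range but stayed below every knockout library (0.86 ± 0.18, adjusted p = 0.0183), and the call was lost without ZH11-Cas9-1 replicate 2 (adjusted p = 0.08) and in the fit of the 6 libraries alone (adjusted p = 0.0531). In ZH11-OE-1 the means were 207.1 FPKM for GW6 and 34.2 FPKM for OsGASR9, above those of ZH11 in both cases.

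**Figure D4:**
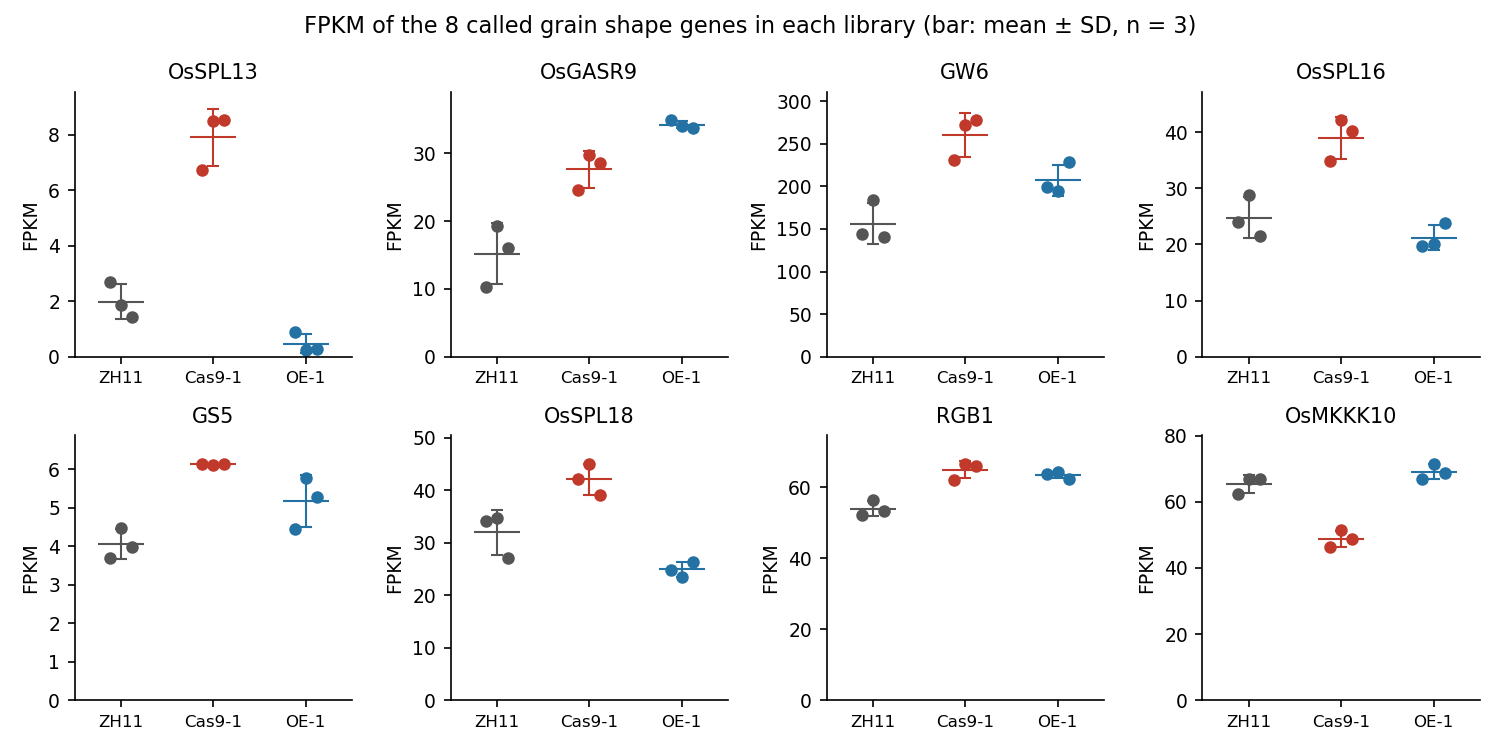
FPKM in each library of the 8 called grain shape genes, with the mean and SD of 3 libraries per genotype, each panel on its own axis from 0 (Cas9-1 and OE-1 stand for ZH11-Cas9-1 and ZH11-OE-1). In each panel the ZH11-Cas9-1 points do not overlap the ZH11 points.

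Of 6 genes for G-protein signalling, only RGB1, the Gβ subunit of the list, was called higher (16.7%, against 5.0% of all tested genes). It had 52.2, 56.4 and 53.3 FPKM in ZH11 and 62.2, 66.6 and 66.0 FPKM in ZH11-Cas9-1. The increase of 20.4% was small but even (0.26 ± 0.07, adjusted p = 0.0467). It lay at the threshold, since the adjusted p was 0.0557 with the block on all 9 libraries, 0.0517 with the block on 6, and 0.0532 to 0.172 on leaving out any one of the 6 libraries. The Gγ subunit RGG1 had 2.86, 2.70 and 2.50 FPKM in ZH11 and 4.31, 3.32 and 3.37 FPKM in ZH11-Cas9-1. It did not pass (0.33 ± 0.12, adjusted p = 0.122). For the Gγ subunit RGG2 the difference was 0.19, with a 95% interval of -0.02 to 0.41. The Gα subunit RGA1 differed by -0.15 (-0.43 to 0.12), and the atypical Gγ proteins GS3 and DEP1, known for their alleles that alter grain length and panicle form, by 0.16 (-0.13 to 0.45) and 0.09 (-0.27 to 0.45).

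Of 6 genes of the MAPK group, 1 was called lower (16.7%, against 3.59% of all tested genes). A further 3 had a lower mean and 2 a higher mean in ZH11-Cas9-1. The row listed as OsMKKK10, Os06g0154500, had 62.3, 67.0 and 67.0 FPKM in ZH11 and 46.5, 51.4 and 48.7 FPKM in ZH11-Cas9-1. It fell by 25.4% (-0.42 ± 0.07, adjusted p = 0.011) and was called in each alternative. The name of this row, like that of the row listed as OsMAPK6, rests on the grain shape list alone. Neither name could be checked against an annotation, so which kinase each row stands for is uncertain. The row listed as OsMAPK6, Os05g0566400, had 38.1, 31.9 and 35.1 FPKM in ZH11 and 31.3, 24.8 and 22.3 FPKM in ZH11-Cas9-1. The difference was of the same size, but the spread was larger (-0.42 ± 0.13, adjusted p = 0.0806), and it passed with the replicate block on 6 libraries (adjusted p = 0.0338) and without ZH11-Cas9-1 replicate 1 (adjusted p = 0.036). The MAPK phosphatase OsMKP1 differed by -0.22 (-0.45 to 0.02) and the kinase OsMKK4 by -0.12 (-0.35 to 0.11), whereas the receptor kinase OsER1 (0.14, -0.08 to 0.35) and the small GTPase OsRac1 (0.23, -0.04 to 0.50) had higher means in ZH11-Cas9-1. OsRac1 passed as higher without ZH11 replicate 1 (0.37, adjusted p = 0.0497).

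The brassinosteroid group had 11 tested members and 1 call, of a higher gene (9.09%, against 5.0% of all tested genes). GS5, a serine carboxypeptidase-like protein that widens grains, had 3.70, 4.47 and 3.97 FPKM in ZH11 and 6.13, 6.11 and 6.13 FPKM in ZH11-Cas9-1. The knockout libraries were nearly identical (0.50 ± 0.12, adjusted p = 0.0298). The call was lost without ZH11 replicate 1 or 3 or without any one ZH11-Cas9-1 library (adjusted p of 0.0681 to 0.104). As with OsSPL16, the role of GS5 would go with wider grains, not with the narrower grains of the knockout line. Its part in grain width was not tested. SG2 had 7.23, 9.61 and 7.81 FPKM in ZH11 and 10.6, 12.6 and 11.7 FPKM in ZH11-Cas9-1. The groups did not overlap, but the difference missed the threshold (0.46 ± 0.13, adjusted p = 0.0618), passing with the block on 6 libraries (adjusted p = 0.0294) and without ZH11 replicate 2 (adjusted p = 0.0351). The receptor OsBRI1 and its co-receptor OsBAK1 had differences near 0, with intervals of -0.21 to 0.20 and -0.22 to 0.15, so that for them a change of 0.5 lies outside the interval. The transcription factor OsBZR1 spread from 58.5 to 83.5 FPKM among the ZH11-Cas9-1 libraries (0.28, -0.03 to 0.58). The biosynthetic gene D2 and the OVATE family gene OsOFP8 were below the filter.

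Of 5 auxin genes, OsARF4 and OsIAA3, a transcription factor and a repressor of auxin signalling, were lower without passing. OsARF4 had 77.0, 82.0 and 82.6 FPKM in ZH11 and 63.6, 66.5 and 65.3 FPKM in ZH11-Cas9-1. The groups were well apart and the adjusted p was 0.0559 (-0.30 ± 0.09), falling to 0.0496 and 0.0334 with the replicate block on 9 and on 6 libraries. OsIAA3 had 178.6, 155.2 and 179.6 FPKM in ZH11 and 149.3, 134.6 and 130.9 FPKM in ZH11-Cas9-1. Its difference of -0.30 ± 0.10 had an adjusted p of 0.0844. The response factors OsARF6 and OsARF25 and the auxin synthesis gene TSG1 differed by 0.04 to 0.10. None of the 6 ubiquitin-pathway genes passed in limma, and 0 had an unadjusted p under 0.05. The ligase GW2 stood at 18.8, 20.9 and 18.0 FPKM in ZH11 and 17.6, 21.3 and 18.3 FPKM in ZH11-Cas9-1, which is the same range. The deubiquitinases WTG1 and LG1 differed by 0.14 (-0.05 to 0.33) and -0.17 (-0.35 to 0.01). Of the ethylene group, 4 genes were tested and 0 were called in limma, with 0 at an unadjusted p under 0.05, and OsERF115 was below the filter. Over the whole list, 44 tested genes were not called, and in 33 of them the 95% interval lay within -0.5 to 0.5 on the log2 scale.

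Beyond grain shape, 10 lists of identifiers for known processes in the panicle were described. The table carries no gene names, and the lists were drawn up from background knowledge, so each list is described as a whole. They were chosen with earlier results of these data known, so their shares describe the lists and lend no separate support. The list for the tapetum and the pollen wall differed most in its count. Of its 19 genes, all of which passed the filter, 11 (57.9%, against 5.0% of all tested genes) were higher in ZH11-Cas9-1 and 0 lower. An unadjusted p under 0.05 in limma was found for 14 of the 19 (73.7%, against 25.7% of all tested genes). The called rises ran from 0.51 to 1.55, and the median over the 19 was 0.85, against -0.01 over all tested genes. The median FPKM of the list was 25.2, 43.0 and 20.2 in ZH11 replicates 1 to 3 and 51.7, 70.0 and 52.6 in ZH11-Cas9-1, so that the lowest knockout library exceeded the highest wild-type library. The summed FPKM, of which 47.5% came from 1 member, were 6901, 6144 and 4821 in ZH11 and 8456, 8213 and 6389 in ZH11-Cas9-1, and these sums overlapped.

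The level of this list also moved with the replicate number. Replicate 3 was the lowest library for 16 of the 19 genes in ZH11 and for 14 in ZH11-Cas9-1, and replicate 2 was the highest for 12 and 13. Within same-numbered pairs the median difference was 0.75, 0.66 and 1.14, and 14 genes (73.7%) were higher in ZH11-Cas9-1 in all 3 pairs, against 25.2% of all tested genes. With the replicate block 12 members were higher in either fit, and 2 became lower in the fit of the 6 libraries. The count was 3 in that fit without the block, 6 without ZH11 replicate 1 and 4 without ZH11 replicate 3. Leaving out ZH11-Cas9-1 replicates 1, 2 and 3 in turn gave 4, 3 and 6 members. In a bulk sample, a larger share of tapetum cells and more RNA per cell cannot be told apart, nor can either be told apart from panicles collected at a slightly different stage. Side by side, the median difference of the list from ZH11 was 0.85 in ZH11-Cas9-1 and 0.87 in ZH11-OE-1, comparisons that share the ZH11 libraries. Meiosis genes, another marker of anther stage, had 9 of 13 members tested, 0 called in limma (0 at an unadjusted p under 0.05) and a median of -0.01. These genes were weakly expressed, with a median of 3.05 FPKM over the tested members. Their median difference from ZH11 was 0.35 in ZH11-OE-1.

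**Figure D5:**
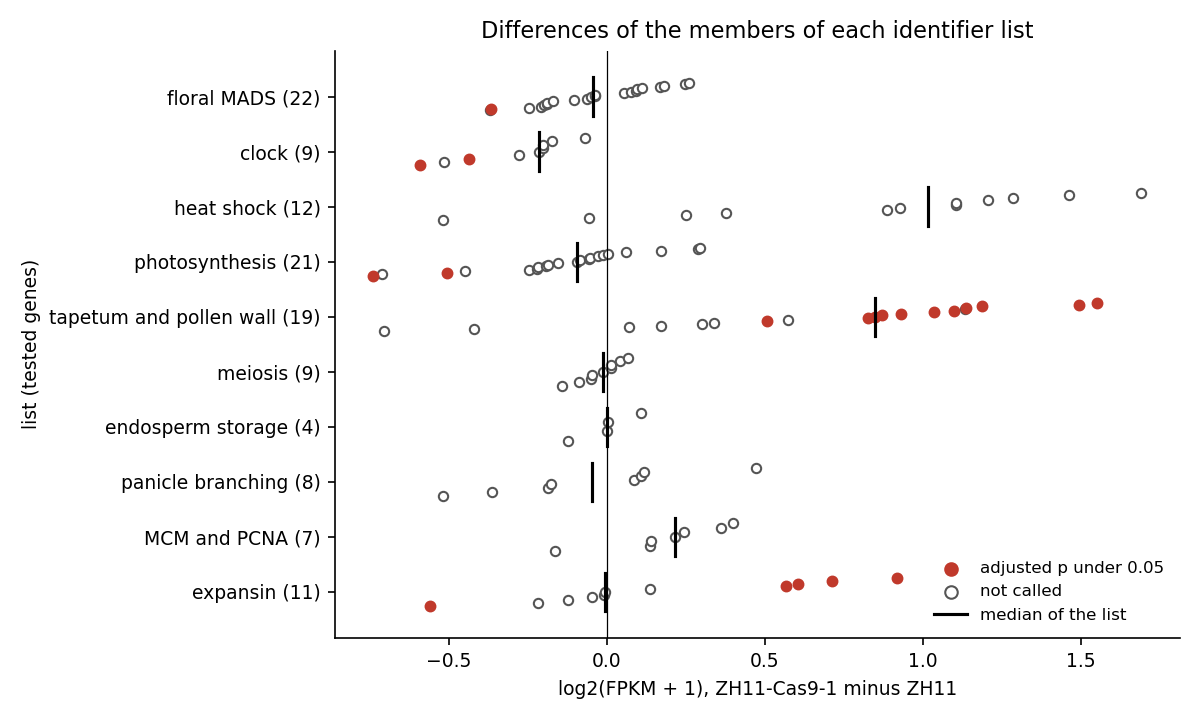
Difference between ZH11-Cas9-1 and ZH11 in log2(FPKM + 1) for each tested member of the 10 lists, with the number tested in brackets, called members filled and the median as a bar. The tapetum and pollen wall list has 11 filled points, all to the right of 0.

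Of 11 tested expansins, which loosen cell walls during growth, 4 rose by 0.57 to 0.92 (36.4%, against 5.0% of all tested genes) and 1 fell (-0.56), while the median was -0.01. The number of rises was 1 when ZH11 replicate 1, ZH11 replicate 3, ZH11-Cas9-1 replicate 2 or ZH11-Cas9-1 replicate 3 was left out. The single fall was lost (0 genes) on leaving out any one library other than ZH11 replicate 2, with a pseudocount of 0.1, with median-of-ratios scaling, with no trend and in the fit of the 6 libraries without the block. The summed FPKM of the 11 genes were 804.0 to 866.9 in ZH11 and 833.4 to 850.4 in ZH11-Cas9-1. The replication genes for the MCM helicase and PCNA, markers of dividing cells, gave 0 calls in limma among 7 (0 at an unadjusted p under 0.05), with a median of 0.22 and sums of 39.2 to 51.2 FPKM in ZH11 and 43.9 to 58.6 FPKM in ZH11-Cas9-1. From RNA-seq and qRT-PCR of selected genes, the study reported lower levels of several cell cycle genes in this line. It reported higher levels of cell expansion genes. Its selected genes were not matched to the lists used here.

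Circadian clock genes were on the low side. All 9 tested members had a lower mean in ZH11-Cas9-1, 2 of them passing the test (22.2%, against 3.59% of all tested genes) with differences of -0.59 and -0.44, and the median was -0.21. The sums were 485.9, 510.6 and 571.3 FPKM in ZH11 and 449.6, 438.0 and 478.2 FPKM in ZH11-Cas9-1, which do not overlap. Of the summed FPKM, 60.8% came from 1 member, which differed by only -0.07 and whose libraries overlapped. A single call was left without ZH11 replicate 3 and without ZH11-Cas9-1 replicate 1 or 2. As clock genes cycle over the day, and the sources used here do not give the hour of harvest of each library, the part of harvest time in these values was not tested.

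Heat shock genes varied more between libraries than between genotypes. Replicate 3 was the highest library for all 12 tested genes in both genotypes, and the sums were 2985, 2576 and 6432 FPKM in ZH11 and 2965, 4749 and 8536 FPKM in ZH11-Cas9-1. Although the median difference was 1.02, 0 genes were called in limma and 3 had an unadjusted p under 0.05. In same-numbered pairs 9 of the 12 (75.0%, against 25.2% of all tested genes) were higher in ZH11-Cas9-1 in all 3 pairs, and with the replicate block on the 6 libraries 3 were called higher. Photosynthesis genes, which mark green tissue, gave 2 lower genes of 21 (9.52%, against 3.59% of all tested genes) and a median of -0.09, with ZH11 replicate 1 the highest wild-type library in 19 of the 21. The number of lower genes was 1 without ZH11 replicate 1, ZH11 replicate 3 or ZH11-Cas9-1 replicate 2, and it was 4 when ZH11-Cas9-1 replicate 1 was left out. In the list of floral MADS-box genes 1 of 22 was lower (4.55%, near the 3.59% of all tested genes, with a difference of -0.37), and the median was -0.04. That call was lost (0 genes) without ZH11 replicate 3, ZH11-Cas9-1 replicate 1 or ZH11-Cas9-1 replicate 2. The panicle branching list, whose genes act in younger meristems, had 8 of 17 members tested, 0 called in limma, 2 at an unadjusted p under 0.05 and 1 called higher with the replicate block on the 6 libraries, and the endosperm storage list had 0 called and 0 at an unadjusted p under 0.05 among 4.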

How the data were processed

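RNA of young panicles was sequenced with 3 libraries, described as independent repeats, for each genotype (ZH11, ZH11-Cas9-1, ZH11-OE-1). The authors mapped reads to IRGSP-1.0 with HISAT2, counted them per gene with featureCounts and deposited FPKM per gene and library (tools as listed in the submitters' processing notes). The sources used here do not say whether counting used the strand, so overlapping, antisense and near-identical genes are uncertain. The authors' own test on counts was not repeated, as FPKM are not counts.

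A linear model was fitted to log2(FPKM + 1) by limma 3.58.1 under R 4.3.3 (all 9 libraries in 1 fit, a mean per group, trend on expression, two-sided, no covariate), for the genes whose mean over the libraries of ZH11 and ZH11-Cas9-1 reached 1 FPKM. A gene was called at a Benjamini-Hochberg adjusted p under 0.05, and intervals are at 95%. Tables and plots were made with Python 3.11.15, numpy 2.4.6, pandas 2.3.3 and matplotlib 3.10.9. The fit was tried on simulated libraries in which 200 of 21878 genes were changed. It recovered 15.0% of the changed genes at a log2 difference of 0.5 and 84.5% at 1. A gene without a call may therefore still differ. The alternatives tried were no filter, a minimum of 5 FPKM, a pseudocount of 0.1, a filter over all 9 libraries, median-of-ratios and quantile scaling, a fit of the 6 libraries, a replicate block in either fit, no trend, a log2 difference of at least 1 and leaving out each library.

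Deviations from the group means of same-numbered ZH11 and ZH11-Cas9-1 libraries correlated across genes (r = 0.276, 0.231 and 0.311, against -0.259 to -0.0226 for other pairs), and the numbers were therefore taken to pair the libraries. The main fit holds no term for this pairing, and its calls, SEs and adjusted p values leave it out. Only the fits with the replicate block take it in.

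Of 39387 genes in the RefSeq table of rice (ASM3414082v1), 1 carried an identifier of the deposited table, so gene names come from the study's grain shape list alone, each tied to the row whose means and SDs equal the printed ones within 0.0051 FPKM. Lists based on gene descriptions could not be applied. Named genes were those of the grain shape list and, of identifiers with no name, the 2 largest rises and the 2 largest falls among called genes without overlap. The members and lists were chosen with earlier results of these data known.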

Additional observations from a re-analysis of the deposited data

How the results depend on the processing

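The direction of the 8 called grain shape genes and the 4 unnamed identifiers did not change under any alternative in which they were tested. Without a filter 682 genes were higher and 520 lower, the fit of the 6 libraries alone gave 619 and 396, the same fit with the replicate block 1756 higher genes, and a minimum difference of 1 left 247 and 107. Leaving out 1 library gave 259 to 1305 higher and 182 to 698 lower genes. The replicate block in the fit of all 9 libraries gave 1048 and 767, of which 1564 were among the 1879 genes called without it. For the grain shape list, the fit of the 6 libraries gave 4 higher genes, and 2 genes were lower without a filter, 3 with quantile scaling, 2 with the replicate block on 9 libraries and 3 with the block on 6. Leaving out 1 library gave 2 to 7 higher and 1 to 3 lower genes. The block changed no call of a named gene other than those of RGB1, OsSPL18, OsARF4, SG2 and the row listed as OsMAPK6. For the 10 identifier lists together, 15 genes were higher and 6 lower, against 6 higher without a filter, 4 higher and 3 lower in the fit of the 6 libraries, and 4 to 16 higher and 2 to 7 lower on leaving out 1 library. The genes on in ZH11-Cas9-1 numbered 23 to 30, and those off 0 to 2, on leaving out 1 library. The region of neighbouring changed genes was absent (0 regions) without a filter, in the fit of the 6 libraries and in that fit with the replicate block, there were 2 with a minimum of 5 FPKM, and 0 to 2 on leaving out 1 library. OsSPL18 also lost its call with a pseudocount of 0.1 (adjusted p = 0.0524), without a filter (0.0712), in the fit of the 6 libraries (0.09) and with no trend (0.0726), RGB1 with quantile scaling (0.0619), in the fit of the 6 libraries (0.0906) and with no trend (0.0858), and GS5 without a filter (0.0574). The scalings moved the median of all tested genes to -0.01 and -0.04 from -0.01, and the share of higher genes among calls from 58.2% to 63.6% and 54.1%. FPKM keep no read numbers, so the precision of single values is known only from the spread of 3 libraries.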
